A study of Mus musculus with 9 samples.

Results

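Matrix metalloproteinases (MMPs), ADAM and ADAMTS proteases, the ADAMTS-like proteins and the tissue inhibitors of metalloproteinases (TIMPs) were followed as a set in fibroblasts sorted for low or high MYC. Members were the protein-coding genes of the RNA table whose symbol starts with Mmp, Adam or Timp and a number, or with Adamts. This rule found 61 of 19769 genes: 19 MMPs, 16 ADAMs, 17 ADAMTS proteases, 5 ADAMTS-like genes and 4 TIMPs, on 18 chromosomes. The cells were primary mouse embryonic fibroblasts (MEFs) from Myc-Egfp+/+ mice, in which MYC is fused to GFP. All of them received 20 µM MG-132, an inhibitor of the proteasome, for 6 h, and were then sorted into low-MYC and high-MYC cells by GFP and cultured overnight before RNA was extracted. Each group has 2 RNA libraries, which are technical replicates, so each p-value given here compares these libraries and not independent cultures. The groups are the low and the high tail of the GFP distribution, both had been exposed to the proteasome inhibitor, and untreated cells are not analysed here. A single table of nuclease-accessible chromatin (TACh-seq), which the labels give for all 4 samples of WT and KOKD (Fubp1 knockout with knockdown of Fubp2) MEFs and which has no library column, and 166 FUBP1 ChIP-seq peaks of primary MEFs, all on chromosome 15, were used for position only.

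MMPs and ADAMTS proteases are zinc enzymes that cut the extracellular matrix, and ADAMs mostly shed the outer parts of membrane proteins such as growth factors and receptors. Most are made as inactive precursors, so that mRNA levels speak of enzyme supply and not of activity. TIMPs bind the active site of these enzymes and block it. Fibroblasts are a main source of both the proteases and their inhibitors in connective tissue, and several MMP genes of 1 cluster respond to cytokines and growth factors through AP-1, the transcription factor of the FOS and JUN families.

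The promoters of the MMP cluster are shown first, because the change between groups varied widely among its genes. By the ratio of group means, Mmp3 and Mmp13 were near the top and Mmp10 at the bottom of the tested members, Mmp12 had the largest ratio between groups, and Mmp1b overlaps Mmp12 on the other strand. The sequences are from RefSeq (GRCm38.p6), run 5′ to 3′ on the strand of the gene, and span 250 bases before to 50 bases after the annotated start. They lie at chr9:7445572-7445871 (plus strand) for Mmp3, chr9:7272264-7272563 (plus) for Mmp13, chr9:7502092-7502391 (plus) for Mmp10, chr9:7387977-7388276 (minus) for Mmp1b and chr9:7344147-7344446 (plus) for Mmp12. Capitals mark the AP-1 motif (TGAGTCA, or TGACTCA on the other strand) and the TATA motif (TATAAA, or TTTATA on the other strand).
Mmp3: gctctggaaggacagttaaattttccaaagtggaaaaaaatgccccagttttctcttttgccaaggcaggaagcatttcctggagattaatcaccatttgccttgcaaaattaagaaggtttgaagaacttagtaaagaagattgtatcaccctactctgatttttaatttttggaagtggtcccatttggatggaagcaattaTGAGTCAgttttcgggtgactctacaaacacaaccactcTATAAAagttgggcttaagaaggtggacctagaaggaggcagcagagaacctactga
Mmp13: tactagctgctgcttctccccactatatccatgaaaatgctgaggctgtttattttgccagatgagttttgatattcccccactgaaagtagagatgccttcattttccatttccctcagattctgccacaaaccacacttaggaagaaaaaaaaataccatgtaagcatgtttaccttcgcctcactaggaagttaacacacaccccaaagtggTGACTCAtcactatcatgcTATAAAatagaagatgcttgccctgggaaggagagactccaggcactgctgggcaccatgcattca
Mmp10: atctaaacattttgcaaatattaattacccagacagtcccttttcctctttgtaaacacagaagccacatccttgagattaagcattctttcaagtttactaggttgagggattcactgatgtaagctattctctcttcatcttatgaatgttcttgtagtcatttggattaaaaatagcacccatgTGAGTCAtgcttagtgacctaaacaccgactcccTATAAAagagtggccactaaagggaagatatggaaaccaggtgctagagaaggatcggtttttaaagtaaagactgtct
Mmp1b: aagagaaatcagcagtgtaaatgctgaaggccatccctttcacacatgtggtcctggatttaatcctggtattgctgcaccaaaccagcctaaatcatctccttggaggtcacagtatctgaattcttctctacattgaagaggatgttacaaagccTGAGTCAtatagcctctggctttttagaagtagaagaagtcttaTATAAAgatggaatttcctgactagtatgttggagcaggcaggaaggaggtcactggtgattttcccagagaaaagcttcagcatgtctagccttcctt
Mmp12: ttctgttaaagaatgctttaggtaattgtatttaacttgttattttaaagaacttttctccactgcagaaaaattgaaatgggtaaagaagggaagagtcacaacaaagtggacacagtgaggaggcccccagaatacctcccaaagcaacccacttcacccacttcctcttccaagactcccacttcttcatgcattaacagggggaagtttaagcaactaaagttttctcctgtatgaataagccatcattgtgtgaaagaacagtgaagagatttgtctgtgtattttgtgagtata
Counting from 0 at the annotated start, the AP-1 motif began at -46 in Mmp3, -35 in Mmp13, -63 in Mmp10 and -93 in Mmp1b, and the TATA motif followed it at -7, -16, -29 and -49. The Mmp12 window holds neither motif. RefSeq promoters were matched by symbol for 40 of the 61 members. The promoter nearest to the gene start was taken for each, at up to 61068 bp for Adamts20. The background counts every promoter and can hold several of 1 gene, so the shares are of unlike units. Of these, 5 (12.5%) held the AP-1 motif, against 5.2% of all 32851 promoters of the same length, and the member outside the cluster was Adam19. Of the 40, 7 (17.5%) held the TATA motif, against 13.6% of all promoters. Both motifs together stood in 4 of the 40 (10%) and in 0.941% of all promoters. The 4 are the cluster genes above, which are related neighbours and not independent members. The E-box CACGTG, the preferred site of MYC and its partner MAX, stood in 2 of the 40 (5%), Adam10 and Adamts17, against 7.15% of all promoters. The AP-1 and TATA motifs do not overlap each other in any printed window. A match only says that these letters are present.

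The RNA values are fragments per kilobase divided by a spike-in score, so that they are relative to the number of cells; they are called normalized FPK here. They summed to 46321 and 48291 in the low-MYC libraries and to 102853 and 109090 in the high-MYC libraries. The number of reads per library is unknown, and the worth of 1 read was judged from the smallest steps of the values. Over a length of 1 kb it was about 0.00436 and 0.00438 normalized FPK in the low-MYC and 0.00979 and 0.0111 in the high-MYC libraries. With transcript length, Adamts16 came to 0.218, 0.174, 0.131 and 0.0871 reads, under 1 although above 0. With the span of the gene, introns included, the values of Adamts16 and Timp4 fall near whole reads in each library. A long gene thus has a lower value than a short gene with as many transcripts. The ratio of groups for 1 gene does not depend on length. The groups were compared with limma on log2(FPK + 0.1) over 11870 genes whose mean in the 4 libraries was 0.1 or more, and a gene was called at an adjusted p (Benjamini-Hochberg) under 0.01. The added 0.1 shrinks the fold changes of low genes. Because nearly every gene was higher per cell in high-MYC cells, the members are also given relative to the median gene, after each library had been divided by its median ratio to the geometric mean of the libraries. In a population sorted as bulk, more cells of a type and more RNA per cell cannot be told apart. All 10 markers on a list of fibroblast genes were present and summed to 334 and 339 in the low-MYC and 802 and 818 in the high-MYC libraries. All 15 markers on a list of macrophage genes were also detected, with sums of 0.646 and 0.892 in low-MYC and 28.4 and 29.8 in high-MYC libraries. Each of the 15 was higher in both high-MYC libraries than in both low-MYC libraries. This was also the case for 92.5% of all genes and 82.7% of genes with a mean under 0.1. The ratios of group means of the 15 ran from 7.43 for Cd68 to 724 for C1qa. Their median was 157, against 2.8 for the fibroblast markers. Lyz2 made up most of the high-MYC sums (17.99 and 18.94). C1qa, Adgre1 and Tyrobp were listed at 0 in low-MYC replicate 1.

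Of the 61 members, 33 reached the minimum mean and 28 did not. Because values fall with gene span, the minimum also leaves out long genes, such as Adamtsl1 (chr4:85514172-86428385), and not low transcripts alone. Of the 33 tested, 4 (Adamts7, Mmp9, Adamts14 and Adamts9) had a low-MYC mean under the minimum and passed through their high-MYC libraries. All 33 were higher in high-MYC cells on the spike-in scale, which is also the case for 97.1% of all genes tested, and 0 were lower against 0.0253% of all genes (0 also at an unadjusted p under 0.05 with limma, against 0.0421% of all genes). The ratio of group means ran from 1.68 for Mmp10 to 8.89 for Adam8, with a median of 2.38. The median log2 fold change was 1.11 for the members and 1.03 for all genes tested. Relative to the median gene, 7 members were higher, against 2.03% of all genes tested: Adam8, Mmp3, Mmp13, Adamtsl4, Mmp19, Adamts5 and Timp3. On this scale 0 members were lower, against 0.607% of all genes, and at an unadjusted p under 0.05 with limma 14 members were higher and 6 were lower, beside 17.8% and 15% of all genes. The median of the members was 0.07, and 23 of the 33 lay above 0. The 7 calls rest on all 4 libraries: without either high-MYC library 0 of them passed, and without either low-MYC library Adam8 alone did. Adam8 was also the only one to pass without the filter on low values, and Adam8, Mmp3 and Mmp19 passed with a smaller pseudocount and filter (0.001 and 0.005).

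**Figure D1:**
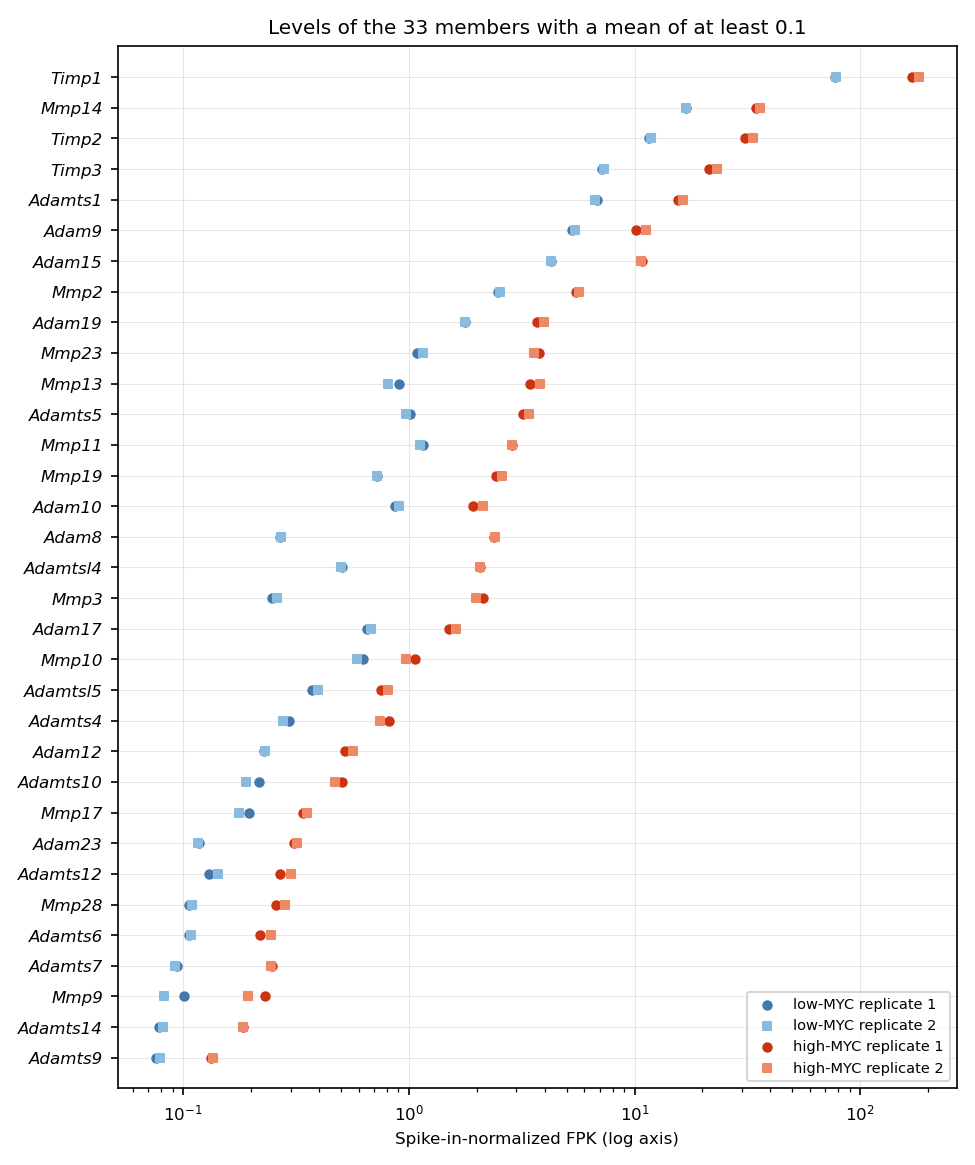
Normalized FPK (log axis) of the 33 members with a mean of at least 0.1, 1 row per gene and 1 point per library (blue, low-MYC; red, high-MYC). Both high-MYC libraries lie above both low-MYC libraries in every row, Timp1 is the highest member at 170 and 182 in high-MYC cells, and the distance between the groups is widest for Adam8 and Mmp3.

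Of the inhibitors, Timp1, Timp2 and Timp3 had values among the 4 highest of the members, with Mmp14 second, and Timp4 was barely detected. Timp1, a secreted inhibitor of most MMPs, had the highest values, 76.9 and 78.1 normalized FPK in the low-MYC and 170 and 182 in the high-MYC libraries. It made up 51.8% of the summed mean value of all 61 members. This share is not a share of transcripts, since short genes such as Timp1 (chrX:20870166-20874735) have higher values for as many transcripts. The ratio of group means of Timp1 was 2.27. Relative to the median gene its log2 fold change was 0.01 (standard error 0.0277, adjusted p = 0.883, limma), and this value was slightly negative under 3 of the other settings tried.

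Timp2, which inhibits MMPs and also helps MMP14 to activate pro-MMP2, had 11.6 and 11.9 in low-MYC and 31.0 and 33.4 in high-MYC libraries. Its relative log2 fold change of 0.28 missed the threshold (standard error 0.0273, adjusted p = 0.0126, limma). Timp3, the matrix-bound inhibitor that also blocks ADAM17 and the aggrecanases, rose from 7.17 and 7.31 to 21.3 and 23.2. It was the inhibitor called relative to the median gene, at 0.44 on the log2 scale (standard error 0.0288, adjusted p = 0.00599, limma). Its exons overlap those of Syn3 on the other strand. Timp4 was near the limit of detection, with 0.00169 and 0.00339 in low-MYC and 0.000946 and 0.00214 in high-MYC libraries, which overlap.

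Summed over their families, the values of the TIMPs stood at 3.89 and 3.96 times those of the MMPs in the low-MYC libraries and 3.90 and 4.06 times in the high-MYC libraries. The ratios of the groups overlap, while both sums were higher in high-MYC cells (TIMPs from 95.7 and 97.3 to 223 and 238, MMPs from 24.6 and 24.6 to 57.1 and 58.6). The share of Timp1 in the TIMP sum was 80.4% and 80.3% in low-MYC and 76.5% and 76.3% in high-MYC libraries, which do not overlap. These sums weigh genes with high values most and say nothing of rare ones. They also weigh short genes more than long ones, so they are not sums of transcripts.

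Among the membrane-type MMPs, which act at the cell surface, Mmp14 was the leading member. It encodes MT1-MMP, the main pericellular collagenase of fibroblasts and an activator of pro-MMP2. It had 16.8 and 16.9 normalized FPK in low-MYC and 34.7 and 35.9 in high-MYC libraries, a relative log2 fold change of -0.11 (adjusted p = 0.0840, limma). Its share of the summed MMP values, which depends on gene span, was 68.6% and 68.9% in low-MYC and 60.7% and 61.1% in high-MYC libraries. Mmp17, which is held in the membrane by a lipid anchor, had 0.195 and 0.176 against 0.341 and 0.354, with a relative log2 fold change of -0.19 (adjusted p = 0.105, limma). The other 4 genes of this class were under the minimum mean, and those with the highest values were Mmp16 (0.0519 and 0.0538 against 0.125 and 0.138) and Mmp15 (0.0336 and 0.0276 against 0.0860 and 0.0862).

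The gelatinases, which cut denatured collagen and basement membrane, moved with the median gene. Mmp2, the gelatinase that fibroblasts make constitutively, had 2.48 and 2.53 in low-MYC and 5.50 and 5.69 in high-MYC libraries, a relative log2 fold change of -0.02 (adjusted p = 0.724, limma). Mmp9, the gelatinase typical of leukocytes, was far lower at 0.101 and 0.0823 against 0.231 and 0.195, with a relative value of 0.03 (standard error 0.101, adjusted p = 0.886, limma).

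The MMP cluster of chromosome 9 holds 7 members within 309372 bp (chr9:7272514-7581885, GRCm38). In chromosomal order these are Mmp13, Mmp12, Mmp1b, Mmp3, Mmp10, Mmp8 and Mmp27, and all but Mmp1b lie on the plus strand. Their levels differed widely, and so did their change.

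Mmp13, or collagenase 3, cuts fibrillar collagens including that of cartilage. It had 0.905 and 0.807 in low-MYC and 3.45 and 3.83 in high-MYC libraries, a ratio of 4.25 and a relative value of 0.86 on the log2 scale (standard error 0.0727, adjusted p = 0.00937, limma). Mmp3, or stromelysin 1, degrades proteoglycans and activates other MMPs, and it had 0.248 and 0.262 against 2.12 and 1.99. This was a ratio of 8.07 and a relative value of 1.60 on the log2 scale (standard error 0.0636, adjusted p = 0.00235, limma). Mmp10, or stromelysin 2, is its close paralog and lies downstream of it, and it rose from 0.626 and 0.588 to 1.06 and 0.977, the smallest ratio of group means among the tested members (1.68). By the log2 fold change with the added 0.1 on the spike-in scale, Adamts9 (0.40) and Mmp17 (0.65) rose less than Mmp10 (0.66).

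Relative to the median gene, the log2 fold change of Mmp10 was -0.38, the lowest among the members, and it missed the threshold (standard error 0.0766, adjusted p = 0.0524, limma). Within each library the ratio of Mmp3 to Mmp10 needs no scaling. It was 0.396 and 0.445 in the low-MYC and 2 and 2.04 in the high-MYC libraries, so the order of the 2 stromelysins was opposite in the groups. The ratio of Mmp13 to Mmp3 was 3.65 and 3.08 in low-MYC and 1.63 and 1.92 in high-MYC libraries. Paralogs that share reads are split by estimation in these values, and the printed promoters of Mmp3, Mmp13 and Mmp10 all hold the AP-1 and the TATA motif.

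The remaining genes of the cluster were under the minimum mean for the test. Mmp12, the macrophage elastase, had 0.00225 and 0.00261 in low-MYC and 0.139 and 0.133 in high-MYC libraries, a ratio of 55.9. Mmp8, the collagenase of neutrophils, had 0.00217 and 0.00218 against 0.0263 and 0.0473, a ratio of 16.9. Mmp1b had 0.00154 in both low-MYC libraries and 0.0113 and 0.00806 in high-MYC libraries, and its exons overlap those of Mmp12 on the other strand. Mmp27 was listed at 0 in low-MYC replicate 1. No ratio is given for Mmp1b or Mmp27. In a limma fit that admits lower genes (pseudocount 0.001, minimum mean 0.005), 4 of 48 members were called higher relative to the median gene, against 0.429% of the 17477 genes tested, and 0 lower, against 0.0687%. Mmp12 was among the 4, at 4.29 on the log2 scale (standard error 0.157, adjusted p = 0.00729), and Mmp8 at 2.51 was not (adjusted p = 0.0390). Both had low-MYC means under that minimum and entered this fit through their high-MYC libraries, so these values describe genes that had to differ. The macrophage markers given above were also higher in high-MYC cells, as most genes were. Of 10 neutrophil markers only S100a8, Camp and Cxcr2 were in the table, with sums of 0.0618 and 0.0981 in low-MYC and 0.568 and 0.571 in high-MYC libraries. S100a8 made up most of these sums (0.535 and 0.543 in high-MYC libraries), the libraries of Cxcr2 overlapped (0.00420 and 0.00541 against 0.00672 and 0.00304), and the defining markers Ly6g, Elane and Mpo were not listed. The part of these cells in the levels of Mmp12 and Mmp8 was not tested.

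**Figure D2:**
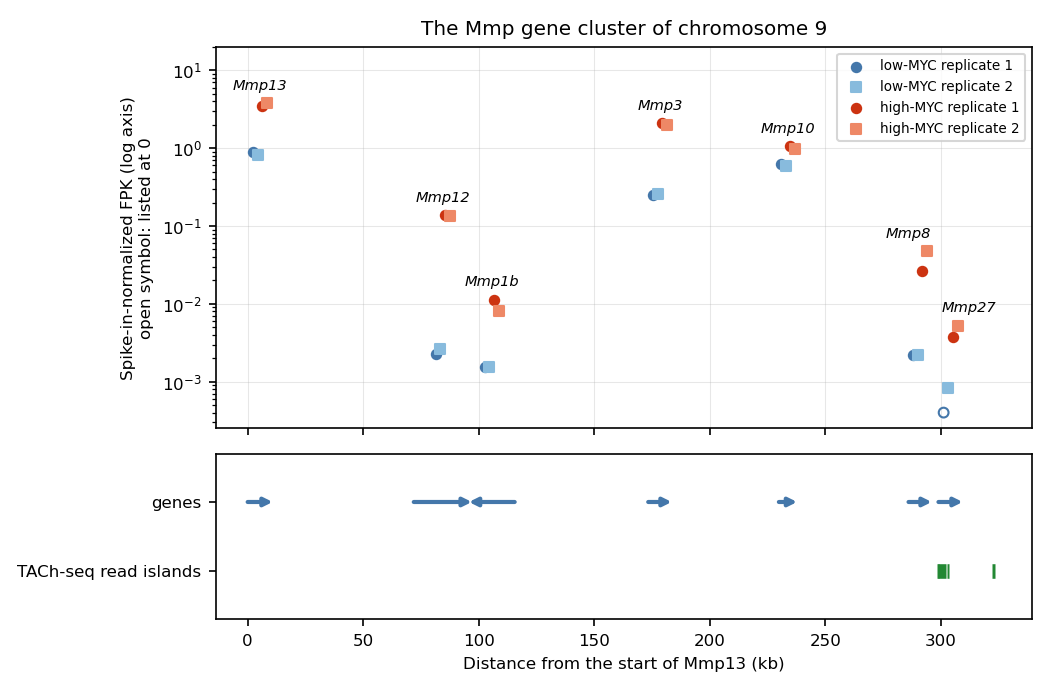
The MMP cluster of chromosome 9 by distance from the start of Mmp13 in kb: normalized FPK of its 7 genes (log axis, 1 point per library, open symbol for a value listed at 0), with the genes as arrows and the islands of TACh-seq reads as bars below. The libraries of the groups do not overlap for any of the genes, the distance is wider for Mmp3 and Mmp13 than for Mmp10, and read islands lie at and beyond Mmp27 only.

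Of the other MMPs, Mmp19, a matrix protease with a broad range of substrates, rose from 0.721 and 0.725 to 2.43 and 2.58, a relative value of 0.57 on the log2 scale (standard error 0.0283, adjusted p = 0.00359, limma). Its exons overlap those of Tmem198b on the other strand. Mmp23, a membrane-anchored MMP with a cysteine-rich domain of its own, had 1.08 and 1.15 against 3.78 and 3.58, and its relative value of 0.52 missed the threshold (adjusted p = 0.0184, limma). Mmp11, or stromelysin 3, stood at 1.16 and 1.12 against 2.85 and 2.87 with a relative value of 0.14 (adjusted p = 0.110, limma). Of the 11 MMPs tested, 3 were called higher relative to the median gene, against 2.03% of all genes tested. Their median was 0.10, and 7 of them lay above 0, as did 5863 of the 11870 genes.

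Of the 16 ADAMs, 8 were tested and 1 was called relative to the median gene. This was Adam8, a protease best known from leukocytes, which sheds proteins from the cell surface. It had 0.268 and 0.272 in low-MYC and 2.39 and 2.40 in high-MYC libraries, a ratio of 8.89, the highest among the members tested. Relative to the median gene the log2 fold change was 1.75 (standard error 0.0368, adjusted p = 0.00135, limma), and it lay between 1.69 and 1.78 with each library left out in turn. Its adjusted p then lay between 0.00529 and 0.0183. An annotated transcript on the other strand, Gm16201, overlaps its exons. The macrophage markers were also higher in high-MYC cells, as most genes were. Mmp9, also typical of leukocytes, had a relative value of 0.03. The part of macrophages in the level of Adam8 was not tested.

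The other ADAMs tested stayed between -0.18 and 0.16 relative to the median gene. Adam9, a sheddase that is widely made, had the highest values of the ADAMs in low-MYC cells, with 5.26 and 5.48 against 10.2 and 11.2. These values depend on gene span and do not rank transcripts. The relative log2 fold change of Adam9, -0.18, was the lowest of the ADAMs (standard error 0.0331, adjusted p = 0.0452, limma). Adam15, an ADAM with an integrin-binding disintegrin domain, had 4.25 and 4.26 against 10.8 and 10.7 (relative 0.16, adjusted p = 0.0913, limma). Adam19 had 1.77 in both low-MYC libraries and 3.72 and 3.97 in high-MYC libraries (relative -0.06, adjusted p = 0.249, limma).

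Adam10 and Adam17 are the main sheddases of the family, Adam10 for NOTCH receptors and Adam17, the TNF-converting enzyme, for TNF and ligands of the EGF receptor. Adam10 had 0.866 and 0.906 in low-MYC and 1.92 and 2.13 in high-MYC libraries, a relative log2 fold change of 0.01 (adjusted p = 0.803, limma). Adam17 had 0.653 and 0.683 against 1.51 and 1.63, a relative value of 0.05 (adjusted p = 0.337, limma). Both rose per cell by about as much as the median gene. Among the ADAMs under the minimum mean, Adam33 had 0.0148 and 0.0119 against 0.0465 and 0.0610, a ratio of 4.03.

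**Figure D3:**
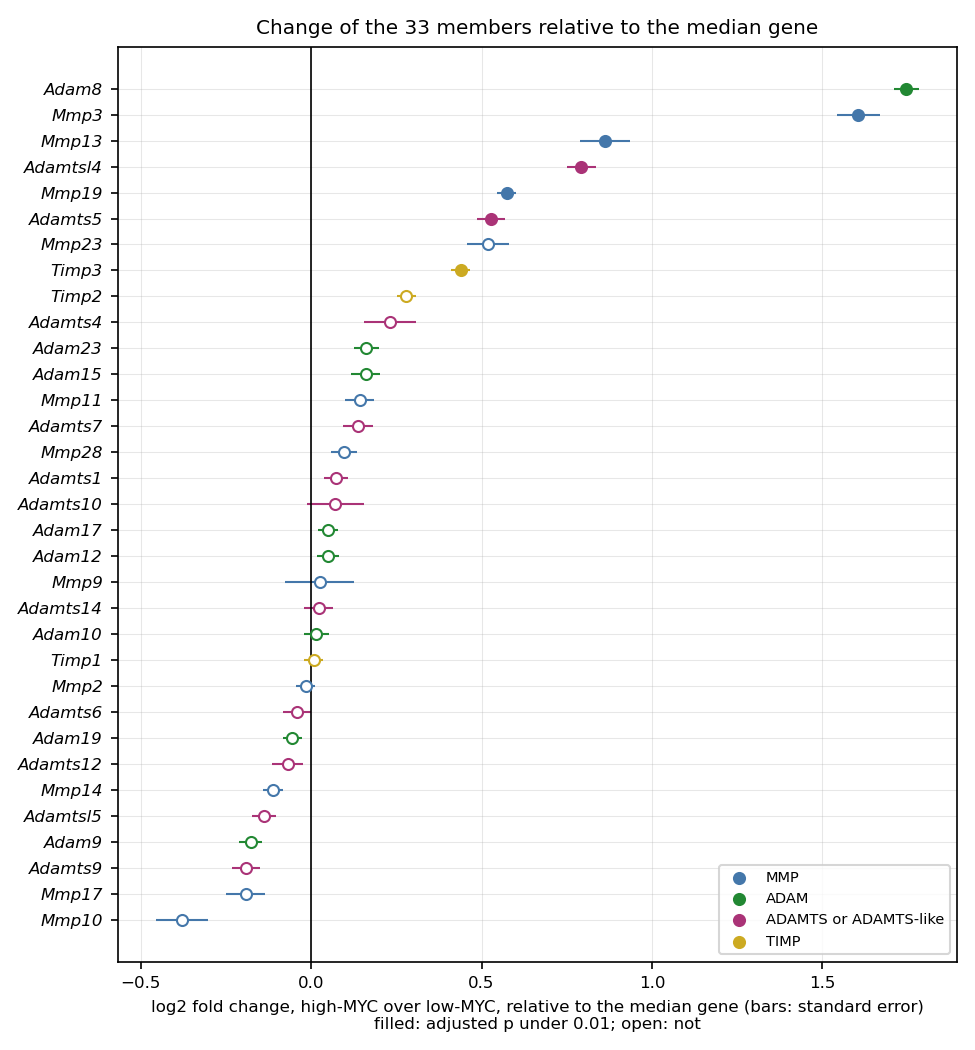
Relative log2 fold change of the 33 members tested (x axis, high-MYC over low-MYC after division by the median gene; bars, standard error), ordered by size and coloured by family. The 7 filled points passed an adjusted p under 0.01, from Timp3 at 0.44 to Adam8 at 1.75, and Mmp10 at -0.38 is the lowest.

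The ADAMTS proteases were grouped by substrate. The hyalectanases cut aggrecan and versican, large proteoglycans that bind hyaluronan, and 4 of these 7 were tested. Adamts1 had the highest values of these, 6.82 and 6.65 normalized FPK in low-MYC and 15.6 and 16.4 in high-MYC libraries. The relative log2 fold change of Adamts1 was 0.07 (adjusted p = 0.231, limma). Adamts5, the main aggrecanase of mouse cartilage, had 1.01 and 0.976 against 3.19 and 3.42, and it was the ADAMTS protease called relative to the median gene, at 0.53 (standard error 0.0399, adjusted p = 0.00770, limma). Adamts4, the other main aggrecanase, had 0.293 and 0.276 against 0.818 and 0.745 (relative 0.23, adjusted p = 0.131, limma). Adamts9 had 0.0756 and 0.0793 against 0.133 and 0.136, with a relative value of -0.19 (adjusted p = 0.0596, limma). Adamts1 and Adamts5 are neighbours on chromosome 16, and their relative values differ more than their standard errors; the difference itself was not tested.

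The procollagen N-proteinases remove the amino-terminal propeptide of fibrillar procollagens. Adamts2, the main one in skin, was under the minimum mean with 0.0201 and 0.0185 against 0.0739 and 0.0713, a ratio of 3.77. Adamts14 had 0.0780 and 0.0813 against 0.185 in both high-MYC libraries (relative 0.02, adjusted p = 0.755, limma). Adamts3 was under the minimum mean, with 0.000612 and 0.000381 against 0.00128 and 0.00182. Of the proteases that cut cartilage oligomeric matrix protein, Adamts7 and Adamts12 were tested and neither was called (relative 0.14 and -0.07, adjusted p = 0.117 and 0.365, limma). Adamts12 had 0.130 and 0.142 in low-MYC and 0.270 and 0.302 in high-MYC libraries.

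ADAMTS-like proteins resemble ADAMTS proteases but lack the protease domain, and several bind fibrillin microfibrils. Adamtsl4, which is needed to hold the lens of the eye in place, had 0.504 and 0.499 in low-MYC and 2.08 and 2.06 in high-MYC libraries. Its ratio was 4.13 and its relative log2 fold change 0.79 (standard error 0.0427, adjusted p = 0.00418, limma). Adamtsl5 had 0.373 and 0.398 against 0.750 and 0.806 and a relative value of -0.14 (adjusted p = 0.0818, limma). Adamtsl3 (0.0383 and 0.0385 against 0.135 and 0.146, ratio 3.66) and Adamtsl1 (0.0146 and 0.0144 against 0.0462 and 0.0473, ratio 3.23) were under the minimum mean, and their libraries did not overlap.

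The 28 members under the minimum mean are described by level and not by a test. Of these, 26 had both high-MYC libraries above both low-MYC libraries, beside 82.7% of the 7899 genes of this low range, and over all 61 members the count was 59, beside 92.5% of all genes. The exceptions were Timp4 and Adamts15. Over the 28, the ratio of group means ran from 0.609 for Timp4 to 55.9 for Mmp12, with a median of 2.81. Adamts15 and Adamts8 were each listed at 0 in 1 low-MYC library.

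**Figure D4:**
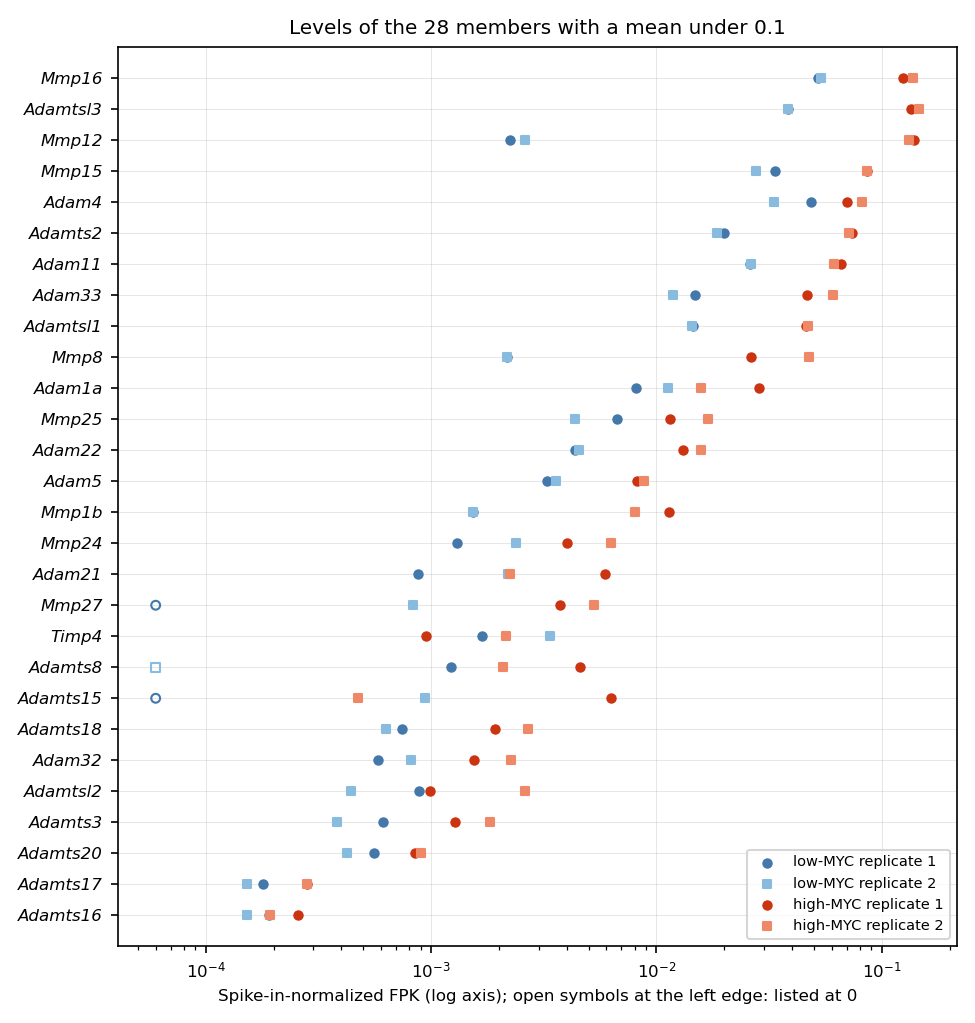
Normalized FPK (log axis) of the 28 members with a mean under 0.1, 1 row per gene and 1 point per library (open symbols, listed at 0). Mmp12 and Mmp8 have the widest distance between low-MYC and high-MYC libraries among the genes above 0 in all libraries, and the libraries of Timp4 and Adamts15 overlap.

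The gene lists around the members were compared in the same way. All tested genes of the 4 lists were higher on the spike-in scale, as nearly all genes were. Of 14 tested genes that control plasmin and MMP activity, 1 was higher and 1 was lower relative to the median gene, against 2.03% and 0.607% of all genes tested, shares that are also the background of the 3 lists that follow. Serpine2, which encodes the inhibitor protease nexin 1, had 1.10 and 1.12 against 3.91 and 4.18 (relative 0.66, adjusted p = 0.00253, limma). Plaur, the urokinase receptor, had 5.93 and 5.92 against 9.31 and 9.52 (relative -0.50, adjusted p = 0.00594, limma). The list had a median of 0.16.

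Of 9 tested genes listed as partners of ADAM proteases, 0 were called in either direction with limma. At an unadjusted p under 0.05 with limma, 3 were higher and 0 lower, against 17.8% and 15% of all genes. Their relative values ran from -0.07 for Pacsin3 to 0.24 for Sh3pxd2a, with a median of 0.07. Of 13 tested ADAM substrates, Tnfrsf1b, the second TNF receptor, was called higher (0.0623 and 0.0631 against 0.316 and 0.318, relative 0.68, adjusted p = 0.00516, limma). It passed the minimum mean only through its high-MYC libraries. Jag1, a NOTCH ligand, was called lower on the relative scale (0.952 and 0.983 against 1.38 and 1.48, relative -0.56, adjusted p = 0.00359, limma). The median of the substrates was -0.03. Of 6 tested matrix substrates, the versican gene Vcan (0.45, adjusted p = 0.00599) and the fibrillin gene Fbn1 (0.53, adjusted p = 0.00698) were called higher on the relative scale with limma, and the list had a median of 0.42. Col3a1 at 0.76 (adjusted p = 0.0117, limma) and Fn1 at 0.12 (adjusted p = 0.0748, limma) were the highest and the lowest of that list, and neither was called. Whether the calls of Vcan and Fbn1 hold with a library left out was not looked at. The relative calls of Serpine2, Plaur, Tnfrsf1b and Jag1 were each lost when any 1 library was left out (adjusted p between 0.0179 and 0.0375, limma).

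The positions of accessible chromatin were read from the TACh-seq table. At least 1 read lay within 500 bp of the annotated start in 36 of the 61 members (59%, exact 95% interval 45.7 to 71.4%), against 67.7% of all protein-coding genes of the RNA table. Split by RNA level, the shares were 27 of 33 tested members (81.8%, interval 64.5 to 93%), against 84.3% of tested protein-coding genes, and 9 of 28 untested members (32.1%, interval 15.9 to 52.4%), against 32.6% of untested ones. Each background share lies within the counting interval of the members. Adam9 had the most reads at its start, 364, followed by Adam17 with 235 and Adam10 with 218. Timp1 had 148, Mmp14 133, Timp2 86 and Timp3 59.

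Tested members with no read at the start were Mmp3, Mmp10, Mmp13, Mmp9, Mmp11 and Adam23. Of these, Mmp3, Mmp10, Mmp13 and Mmp9 also had no read anywhere in the gene. The values of Mmp13 and Mmp3 above 1.9 normalized FPK are from high-MYC cells sorted after MG-132, which are not the cells of this TACh-seq table. Mmp11 had 200 reads inside the gene, and its RefSeq start lies 3994 bp from the one used here. Adam8 had 44 reads at its start. Across the chromosome 9 cluster and 50000 bp on either side, reads formed 4 islands, all nearest to Mmp27, which had 13 reads within 500 bp of its start and was itself listed at 0 in a low-MYC library. Whether these reads come from WT MEFs, KOKD MEFs or both is not known here, so absence of reads is a statement about this table only. The smallest of the 4 islands held 5 reads, and no single reads lay between them. The table may thus list reads of called peaks alone, so absence of reads is not absence of cuts.

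**Figure D5:**
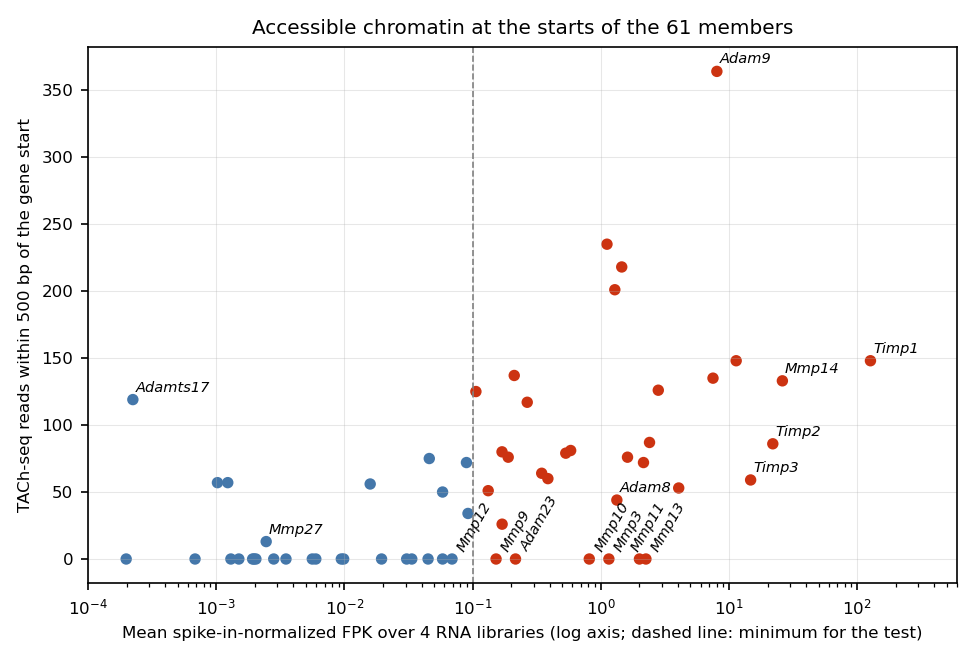
TACh-seq reads within 500 bp of the annotated start (y axis) against the mean normalized FPK over the 4 RNA libraries (x axis, log) for the 61 members; red points were tested, blue points were not, and the dashed line marks the minimum mean of 0.1. Adam9 stands highest at 364 reads, and Mmp3, Mmp10, Mmp13, Mmp9, Mmp11 and Adam23 lie at 0 to the right of the line.

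The FUBP1 peak list used here covers chromosome 15 alone, the chromosome of Myc, so overlap could be looked for in the 2 members there and in none of the others. None of its 166 peaks overlapped Adamts12 (chr15:11064790-11349231, GRCm38) or Adamts20 (chr15:94270163-94465418), and the nearest peak borders were 582990 bp and 704183 bp away. Adamts20 was under the minimum mean, with 0.000557 and 0.000425 in low-MYC and 0.00085 and 0.000905 in high-MYC libraries.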

How the data were processed

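RNA was sequenced from low-MYC and high-MYC MEFs (2 technical replicates each), FUBP1 ChIP-seq from 1 sample and TACh-seq from 4. The authors trimmed 3′ bases with quality under 20, aligned with TopHat to the mm10 transcriptome and quantified with Partek. They report division by transcript length and by a spike-in score (geometric mean of 10 ERCC transcripts added per cell count), and deposited these signal values. The steps of the low values of Adamts16 and Timp4 match the span of the gene, introns included, and not the transcript length. Estimation splits reads of paralogs and overlapping genes, and the strand setting of the quantification is not given in the sources used here. Exons of 17 members overlap another gene. The deposited TACh-seq table lists 1 read per line with a mapping score and no library, and the peak list holds positions alone, on chromosome 15, so neither was compared between conditions.

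log2(FPK + 0.1) was compared with limma 3.58.1 (eBayes with trend, R 4.3.3) over 11870 genes with a mean of at least 0.1, with Benjamini-Hochberg adjustment and a threshold of 0.01, on the spike-in scale and after division of each library by its median ratio to the geometric mean of the libraries (factors 0.658, 0.673, 1.46 and 1.54). The procedure was tested on simulated data. Members and gene lists were chosen with earlier results of these data known. Members were named with values when they were TIMPs, the 10 highest in mean, called on the relative scale, the 8 highest or lowest on it, on chromosome 15, or among the largest ratios of the untested, and pathway genes when highest or lowest of their list. Others were named after their values were seen. Counts of reads were not used here. The worth of 1 read was estimated from the commonest step of low values in genes with 1 annotated transcript. With transcript lengths, only 37.3 to 39.3% of low values lay within 0.05 of a whole number of reads, so no count test was made. Between replicates, estimated reads varied 1.24 (low-MYC) and 1.35 (high-MYC) times as much as counting noise, over 604 genes taken as near-whole in all 4 libraries. The tolerance grew with the number of reads, so the highest values passed whether near-whole or not. These reads were estimated with transcript length. Intervals are 95% and cover counting error only. Gene positions are those of the table, which match GENCODE M21 (GRCm38, the same assembly as mm10). Promoters are from RefSeq. Alternatives covered pseudocount, filter, scaling, trend, threshold, replicate block, left-out libraries, the window at gene starts and the peak overlap. The list of ADAMs that lack the zinc-binding motif was not made, since no protein sequences were used here. Other steps used Python 3.11.15 with scipy 1.17.1, numpy 2.4.6 and pandas 2.3.3, and figures were drawn with matplotlib 3.10.9.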

Additional observations from a re-analysis of the deposited data

How the results depend on the processing

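On the spike-in scale all tested members stayed higher under each pseudocount, scheme of left-out libraries, trend and threshold tried. The count was 22 of 22 at a minimum mean of 0.5 and 44 of 61 without a filter. It was 44 of 48 at a pseudocount of 0.001 with a minimum mean of 0.005, where 13 members were under the minimum. Scaling each library to the same median, which removes the shift shared by all genes, left 7 higher. Relative to the median gene, the count of 7 higher members became 9 at a minimum mean of 0.5 or an adjusted p under 0.05. It was 7 with upper-quartile scaling, 6 without trend and 5 with scaling to the same total. It was 4 at a pseudocount of 0.001 with a minimum mean of 0.005 (Adam8, Mmp12, Mmp19 and Mmp3) and 1 without a filter (Adam8). Of the 4, Mmp12 is not one of the 7 and entered that fit through its high-MYC libraries alone. Left-out libraries gave 0 to 1. At an adjusted p under 0.05, 1 member was lower, Adam9. Of 746 values of single genes, 662 kept direction and side of the threshold, 71 lost the call, 9 gained it and 4 reversed. Those were Timp1 relative to the median gene (-0.01 without a filter and with upper-quartile scaling, -0.00 at a pseudocount of 0.001) and Pacsin3 (-0.15 to 0.01 with a library left out). The cause was not tested.

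The replicate numbers were not shown to pair the libraries (correlation of deviations 0.081 across 11870 genes). With a replicate block 0 members were higher relative to the median gene, and on the spike-in scale 33 remained higher. Windows of 250 and 1000 bp at gene starts gave the same 36 members with a read, and 0 peaks overlapped Adamts12 or Adamts20, the members on the chromosome of the peak list, under either rule of overlap. With 2 technical replicates per group, values near the floor limit what can be said of the low members.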
